A study of Mus musculus with 9 samples.

Results

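The G1 cyclins and their kinases are 8 genes of the machinery that takes a cell from growth into DNA synthesis: the D-type cyclin genes Ccnd1, Ccnd2 and Ccnd3, the E-type cyclin genes Ccne1 and Ccne2, and the cyclin-dependent kinase genes Cdk4, Cdk6 and Cdk2. They were taken by name from 18193 genes, as all probe sets whose platform annotation gives 1 of these symbols and no other, and comprised 24 of 45101 probe sets on the array. Ccnd2 had 7 of these, Ccnd1, Ccnd3, Cdk4 and Cdk6 had 3 each, Ccne1 and Cdk2 had 2 each, and Ccne2 had 1.

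RNA came from normal bone marrow of C57BL/6 mice, a common inbred strain, of either sex and 4 to 10 weeks old. The labels name no mutation and no treatment. Neutrophils (c-kit-, Gr1+, Mac1+), Mac1+ myeloblasts (c-kit+, Gr1+, Mac1+) and Mac1- myeloblasts (c-kit+, Gr1+, Mac1 low or absent) were measured on 3 Affymetrix arrays per population. Both myeloblast populations were also sorted to lack antigens of lymphoid and erythroid cells. The labels do not say that the 3 arrays of a population held RNA of separate animals, so the p-values below reflect how far these arrays spread, and that spread could be technical.

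D-type cyclins are made in response to growth signals and bind Cdk4 or Cdk6. These complexes phosphorylate the retinoblastoma protein and its relatives and so release E2F transcription factors, whose target genes include those of the E-type cyclins. Cyclin E activates Cdk2, which completes the phosphorylation of the retinoblastoma protein and acts at the start of DNA replication. Myeloblasts divide, whereas mature neutrophils do not. In mice, cyclin D3 is known to be needed when granulocyte colony-stimulating factor drives the expansion of neutrophils.

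Each array gave an intensity for every probe set, with a median of 39.1 to 61.8 per array. Precision is set by having 3 arrays per population. The sort antigens matched the labels, with Kit, the gene of c-kit, at 94.9 to 331 in neutrophils, 3176 to 3470 in Mac1+ and 2998 to 3228 in Mac1- myeloblasts, and Itgam, a gene of Mac1, at 2026.5 to 3675, 695 to 919.8 and 69.2 to 74.1 in the same order. Neutrophil array 1 stood apart from the other neutrophil arrays, with correlations of 0.9196 and 0.897 with them (log2 values) against 0.98 between those arrays. Its median intensity was 61.8, against 45.4 and 40.9. Its ratio of 3′ to 5′ control signal was 2.7 for Gapdh, against 2.06 and 2.16, and 1.55 for actin, against 1.52 and 1.84. The part of these properties in its position was not tested. The 5 markers of promyelocytes and myeloblasts, granule genes such as Mpo and Elane, summed to 1749 to 15035 in neutrophils, 75647 to 89420 in Mac1+ and 72141 to 82749 in Mac1- myeloblasts. On the neutrophil arrays Mpo read 7132, 1712 and 778 and Elane 2199, 451 and 208, so that array 1 was the highest for both. Kit was lowest on array 1, at 94.9 against 295.4 and 331.4. Where leaving out this array changed a call of 1 of the 8 genes or moved a called fold by over 1.5 times, the value without it is given, and the part of these markers in it was not tested. B cell, T cell, erythroid, megakaryocyte, and eosinophil and basophil markers summed to at most 1316, 503, 390, 697 and 886 on any array.

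Neutrophils had lower transcript levels of most G1 cyclins and kinases than either myeloblast population. With 1 probe set per gene, the differences of Cdk4, Ccne2 and Cdk6 against Mac1- myeloblasts were -6.50, -4.59 and -3.94 on the log2 scale, and that of Cdk2 was -0.70. Ccnd3 was higher in neutrophils and Mac1+ myeloblasts than in Mac1- myeloblasts, and Ccnd1 was lower in both. Since these are sorted populations measured in bulk, fewer cells that hold a transcript and less of it per cell cannot be told apart. The 3 comparisons share arrays and are not separate evidence.

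Differences are of log2(intensity + 16), which understates changes of dim probe sets, and were called at an adjusted p under 0.05 in limma, with 1 probe set per gene. Against Mac1- myeloblasts, neutrophils had 1 of the 8 genes higher and 7 lower, where 22.6% of all genes were called higher and 30% lower. Against Mac1+ myeloblasts, neutrophils had 1 gene higher and 5 lower, where 19.7% of all genes were called higher and 28.4% lower. Between Mac1+ and Mac1- myeloblasts, 1 gene was higher and 1 lower, where 6.31% of all genes were called higher and 5.51% lower. The number lower there was 3 without neutrophil array 1, a fit for which the share of all genes called was not taken. The median difference of the 8 genes was -2.45, -1.55 and -0.21 in these comparisons, and that of all genes 0.05, 0.05 and -0.01.

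**Figure D1:**
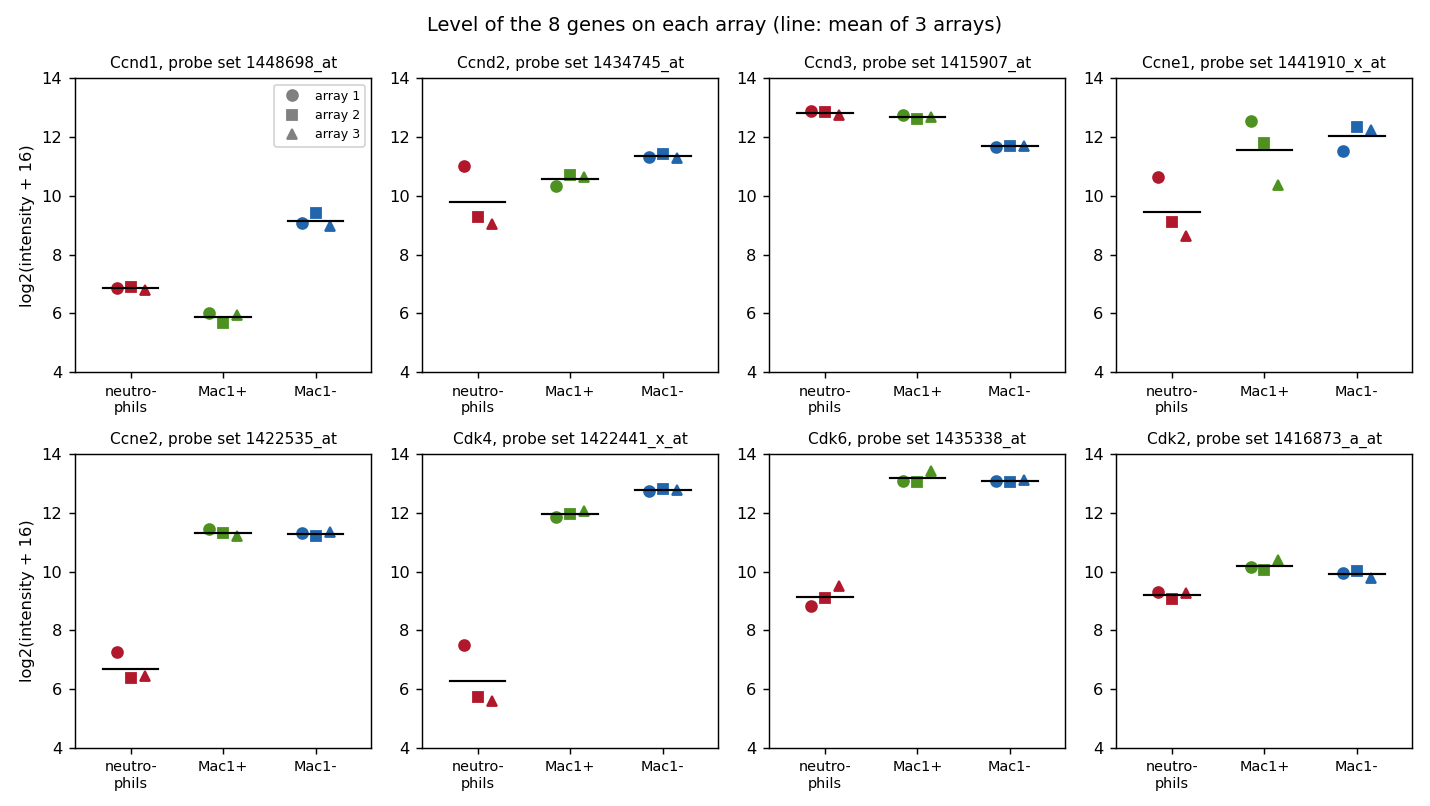
Level of each gene as log2(intensity + 16) on the 9 arrays, by population, for the probe set used in the gene fit; symbols mark array 1, 2 and 3 and the line is the mean of 3 arrays. Levels are comparable within a panel only; Cdk4, Cdk6 and Ccne2 sit far lower in neutrophils than in both myeloblast populations, Ccnd1 is highest in Mac1- myeloblasts, and Ccnd3 is lowest there.

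In the fit of all 45037 probe sets that are not controls, neutrophils had 3 of the 24 probe sets higher and 20 lower than Mac1- myeloblasts, where the shares of all probe sets were 22.5% and 22.6%. Against Mac1+ myeloblasts, 2 were higher and 16 lower in neutrophils, with 19.8% and 21% of all probe sets. In Mac1+ against Mac1- myeloblasts, 2 were higher and 6 lower, with 3.69% and 3.1% of all probe sets. The number lower there was 13 without neutrophil array 1 and 3 without Mac1+ array 1 or 3 or Mac1- array 2 or 3. The number higher was 1 without Mac1+ array 2. For these fits the shares of all probe sets called were not taken. Neutrophils and Mac1- myeloblasts did not overlap on any of the 24 probe sets, a property of 53.4% of all probe sets. Neutrophils and Mac1+ myeloblasts did not overlap on 19 (49.2% of all), nor the myeloblast populations on 18 (33.4% of all).

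**Figure D2:**
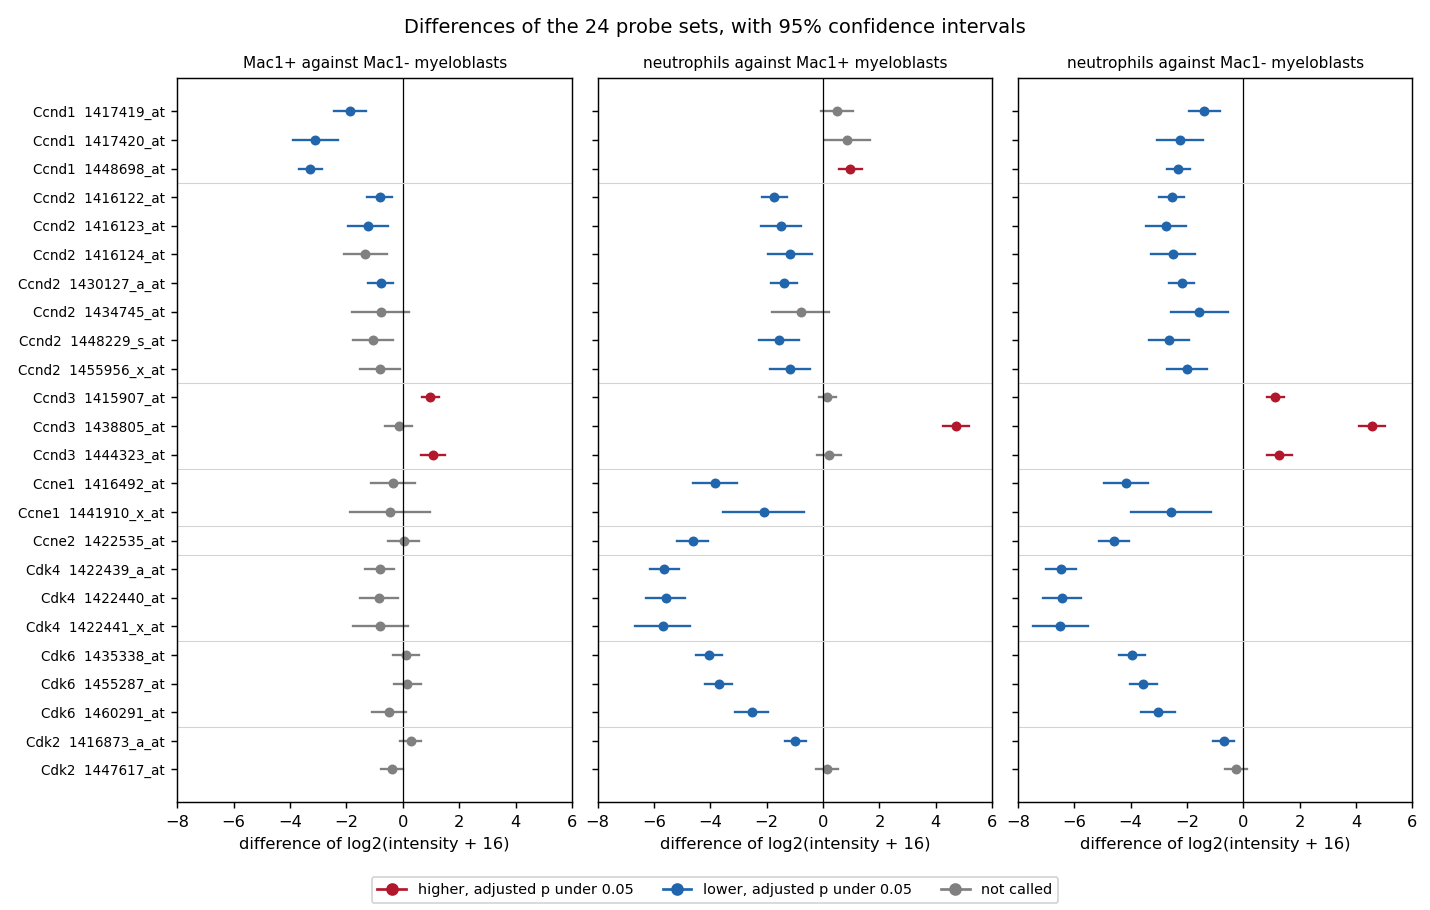
Difference of log2(intensity + 16) with its 95% confidence interval for each of the 24 probe sets, 1 row per probe set and 1 panel per comparison; red marks probe sets called higher, blue lower, grey not called. The 3 probe sets of Cdk4 lie close together in each panel, and probe set 1438805_at of Ccnd3 (4.71 in the middle panel) lies far to the right of the other probe sets of that gene.

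Ccnd1, which encodes cyclin D1, had its highest level in Mac1- myeloblasts. Its brightest probe set, 1448698_at, read 99.9, 103 and 94.4 in neutrophils, 48.6, 35.4 and 45.3 in Mac1+ myeloblasts, and 519, 674 and 489 in Mac1- myeloblasts. The 3 populations did not overlap, and the order from high to low was Mac1- myeloblasts, neutrophils, Mac1+ myeloblasts. On the log2 scale the levels were 6.85 ± 0.06 in neutrophils, 5.88 ± 0.17 in Mac1+ and 9.16 ± 0.24 in Mac1- myeloblasts (SD, n = 3 each). Ccnd1 was 4.96-fold lower in neutrophils than in Mac1- myeloblasts (difference -2.31 ± 0.17, SE as throughout, limma adjusted p = 2.72e-06) and 9.71-fold lower in Mac1+ than in Mac1- myeloblasts (difference -3.28 ± 0.17, limma adjusted p = 4.93e-06). It was 1.96-fold higher in neutrophils than in Mac1+ myeloblasts (difference 0.97 ± 0.17, limma adjusted p = 0.00104).

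All 3 probe sets of Ccnd1 fell in neutrophils and in Mac1+ myeloblasts against Mac1- myeloblasts. The rise in neutrophils over Mac1+ myeloblasts passed on 1 probe set, 1448698_at, and the others had differences of 0.49 ± 0.25 and 0.86 ± 0.35 (limma adjusted p = 0.146 and 0.0843). These readings are dim: those of 1448698_at in Mac1+ myeloblasts lay between percentile 48.2 and 53.1 of their arrays. Monocyte and macrophage markers, and stem and progenitor markers, were also highest in sum in Mac1- myeloblasts. The T cell, erythroid and megakaryocyte sums were highest in neutrophils. The 6 monocyte and macrophage markers, Csf1r, Ly86, Ccr2, Cx3cr1, F13a1 and Adgre1, summed to 10313 to 17305 in neutrophils, 4570 to 5635 in Mac1+ and 30241 to 32163 in Mac1- myeloblasts. Csf1r alone read 12949, 7976 and 7112 in neutrophils, 485, 507 and 715 in Mac1+ and 8385, 8166 and 8797 in Mac1- myeloblasts. On it neutrophils overlapped Mac1- myeloblasts. Adgre1 was highest in neutrophils, at 1940 to 2456, against 758 to 798 in Mac1+ and 1221 to 1358 in Mac1- myeloblasts. Without Csf1r the other 5 summed to 3201 to 5020 in neutrophils, 4063 to 5150 in Mac1+ and 21857 to 23366 in Mac1- myeloblasts. In that sum neutrophils and Mac1+ myeloblasts overlapped.

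The 4 stem and progenitor markers summed to 208 to 545 in neutrophils, 293 to 299 in Mac1+ and 3639 to 3793 in Mac1- myeloblasts, with 2 of the 4 below the array median on all arrays of neutrophils and 2 on all arrays of Mac1+ myeloblasts. Most of the sum in Mac1- myeloblasts was Cd34, which encodes a surface protein of stem and progenitor cells. Cd34 read 11.6 to 22.5, 54.1 to 73.6 and 3215 to 3352 in the same order. Flt3 was also highest in Mac1- myeloblasts, at 70.1 to 122, against at most 20.2 elsewhere. Gata2 and Meis1 did not set Mac1- myeloblasts apart from neutrophils. On neutrophil array 1 Gata2 read 305.2, inside the Mac1- range of 266.3 to 336.8. Meis1 was highest on that array, at 215.9, against at most 49.6 in Mac1- myeloblasts. Flt3 read 1.1, 1.6 and 1.2 in neutrophils and 1.0 on Mac1+ array 1, where 544 to 776 probe sets per array read exactly 1. The part of the markers of both lists in the result for Ccnd1 was not tested.

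Ccnd2, which encodes cyclin D2, was lowest in neutrophils and highest in Mac1- myeloblasts. Probe set 1416122_at read 319, 418 and 437 in neutrophils, 1061, 1578 and 1379 in Mac1+ myeloblasts, and 2489.8, 2298 and 2268 in Mac1- myeloblasts. No population overlapped another on it, and all 3 comparisons were called. The differences were -1.73 ± 0.20 for neutrophils against Mac1+ myeloblasts (limma adjusted p = 9.6e-05), -2.55 ± 0.20 for neutrophils against Mac1- myeloblasts (limma adjusted p = 5.66e-06) and -0.82 ± 0.20 for Mac1+ against Mac1- myeloblasts (limma adjusted p = 0.04). The last call lay near the threshold. It was lost with each array centred on its median (limma adjusted p = 0.137), with an offset of 1 (0.0958), without neutrophil array 2 (0.0556) and without any 1 of the 6 myeloblast arrays (0.0581 to 0.152).

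The probe set of Ccnd2 with the highest mean, 1434745_at, which stands for the gene in the gene fit, read differently on 1 array. It read 2061, 599 and 512 in neutrophils, 1286, 1671 and 1576 in Mac1+ myeloblasts, and 2566, 2732 and 2466 in Mac1- myeloblasts. On it, neutrophil array 1 lay above the Mac1+ arrays and the gene was called only for neutrophils against Mac1- myeloblasts (difference -1.57 ± 0.45, limma adjusted p = 0.0153), a call lost without neutrophil array 2 (-1.31, limma adjusted p = 0.0556). The other differences were -0.79 ± 0.45 for neutrophils against Mac1+ myeloblasts and -0.78 ± 0.45 for Mac1+ against Mac1- myeloblasts (limma adjusted p = 0.176 and 0.397). Without neutrophil array 1 they were -1.41 and -0.78 and both were called (limma adjusted p = 5.55e-05 and 0.0035), and the difference of neutrophils against Mac1- myeloblasts was -2.19 (limma adjusted p = 3.07e-06). Of the 7 probe sets of Ccnd2, all 7 fell in neutrophils against Mac1- myeloblasts, 6 against Mac1+ myeloblasts, and 3 in Mac1+ against Mac1- myeloblasts, where all 7 differences were negative, from -1.33 to -0.78. The 3 calls there, of 1416122_at, 1416123_at and 1430127_a_at, were all lost with centring (limma adjusted p = 0.137, 0.0675 and 0.0909), with an offset of 1 (0.0958, 0.0958 and 0.11), and without Mac1+ array 1 or 3 or Mac1- array 2 or 3 (0.11 to 0.208).

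Ccnd3, which encodes cyclin D3, had the opposite order. Probe set 1415907_at read 7513, 7486 and 6909.6 in neutrophils, 6831, 6289 and 6556 in Mac1+ myeloblasts, and 3234, 3338 and 3343 in Mac1- myeloblasts. Mac1- myeloblasts were lowest with no overlap. The gene was 2.20-fold higher in neutrophils and 1.98-fold higher in Mac1+ myeloblasts than in Mac1- myeloblasts (differences 1.14 ± 0.12 and 0.98 ± 0.12, limma adjusted p = 4.31e-05 and 0.000882). Neutrophils and Mac1+ myeloblasts did not overlap either, but the difference of 0.15 ± 0.12 was not called (95% interval -0.13 to 0.43, limma adjusted p = 0.334). It depended on the scaling of the arrays, being 0.47 with quantile normalization (limma adjusted p = 0.0197) and -0.04 with each array centred on its median. The neutrophil markers, 8 of 9 of them measured, were likewise lowest in sum in Mac1- myeloblasts. The sums were 91502 to 116515 in neutrophils, 80563 to 95404 in Mac1+ and 13896 to 17710 in Mac1- myeloblasts. Not each marker followed Ccnd3. Mmp8 read 12308 to 14115 in neutrophils, 128 to 138 in Mac1+ and 102 to 182 in Mac1- myeloblasts. Mmp9 and Cxcr2 were also far lower in Mac1+ myeloblasts (657 to 1225 and 183 to 220) than in neutrophils (9483 to 11547 and 6149 to 6439). Mmp9 read 54.7, 3.1 and 1.5 in Mac1- myeloblasts. The part of the neutrophil markers in the result for Ccnd3 was not tested.

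Probe set 1444323_at of Ccnd3 followed a similar course, with 1.28 ± 0.19 for neutrophils against Mac1- myeloblasts, 0.21 ± 0.19 for neutrophils against Mac1+ myeloblasts and 1.07 ± 0.19 for Mac1+ against Mac1- myeloblasts. The third probe set, 1438805_at, read 1047, 1441 and 1275 in neutrophils, 21.7, 36.5 and 40.2 in Mac1+ myeloblasts, and 33.5, 42.5 and 36.7 in Mac1- myeloblasts. Its signal lay between percentile 37.3 and 50.1 of the array in both myeloblast populations and between 86.4 and 88.3 in neutrophils. The difference of neutrophils was 4.71 ± 0.20 against Mac1+ and 4.56 ± 0.20 against Mac1- myeloblasts (limma adjusted p = 2.77e-07 and 2.11e-07). The myeloblast populations overlapped on it (-0.15 ± 0.20, limma adjusted p = 0.898). Which part of the Ccnd3 transcript each probe set reads was not analysed here.

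**Figure D3:**
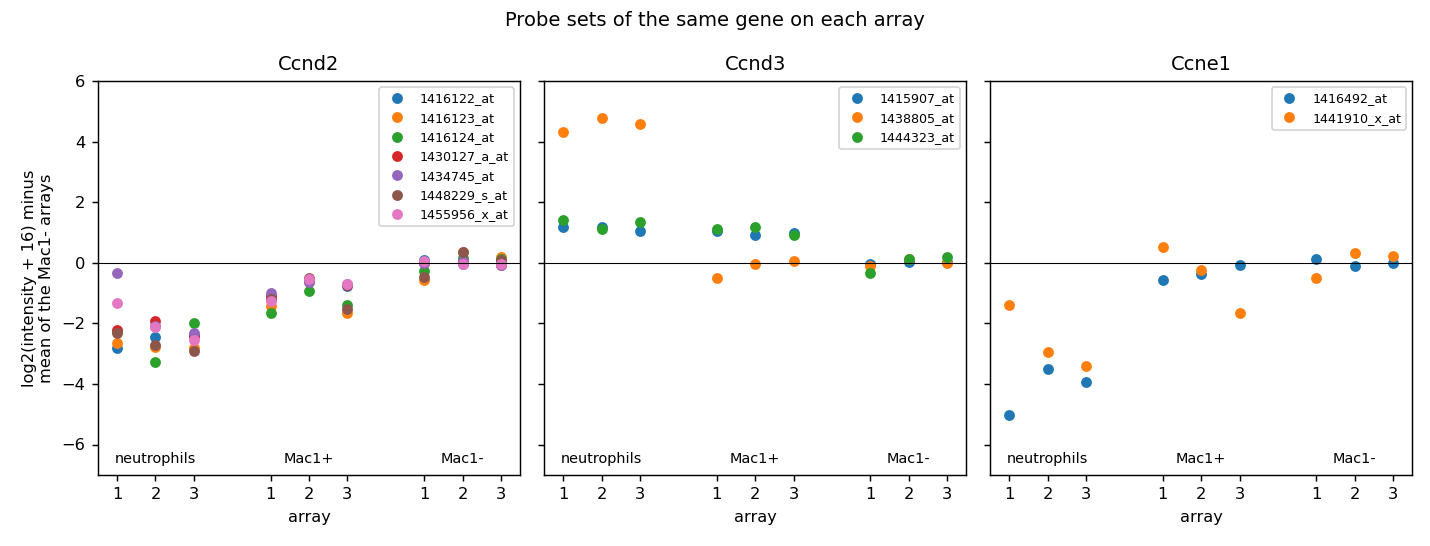
Probe sets of Ccnd2, Ccnd3 and Ccne1 on arrays 1 to 3 of each population, as log2(intensity + 16) minus the mean of that probe set over the Mac1- arrays; 1 colour per probe set. For Ccnd2, 1434745_at and 1455956_x_at stand above the other probe sets on neutrophil array 1; for Ccnd3, 1438805_at is high in neutrophils and near 0 in Mac1+ myeloblasts; for Ccne1, 1441910_x_at varies widely between arrays of a population.

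The E-type cyclins were high in both myeloblast populations and low in neutrophils. Ccne2, which encodes cyclin E2, read 138, 67.1 and 70.1 in neutrophils, 2791, 2528 and 2339 in Mac1+ myeloblasts, and 2500.1, 2336 and 2598 in Mac1- myeloblasts. Neutrophils were lowest with no overlap, and the myeloblast populations overlapped. Ccne2 was 24.8-fold lower in neutrophils than in Mac1+ myeloblasts (6.69 ± 0.50 against 11.32 ± 0.13, SD, n = 3 each, log2 scale, difference -4.63 ± 0.23, limma adjusted p = 4.39e-07) and 24.1-fold lower than in Mac1- myeloblasts (difference -4.59 ± 0.23, limma adjusted p = 3.24e-07). Between Mac1+ and Mac1- myeloblasts the difference was 0.04 ± 0.23, with a 95% interval from -0.49 to 0.57.

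Ccne1, which encodes cyclin E1, was measured by 2 probe sets that differed in spread. Probe set 1416492_at read 9.1, 56.2 and 37.5 in neutrophils, 537, 621 and 771 in Mac1+ myeloblasts, and 878, 754 and 802 in Mac1- myeloblasts. On it Ccne1 fell in neutrophils against both myeloblast populations, with differences of -3.83 ± 0.35 against Mac1+ and -4.17 ± 0.35 against Mac1- myeloblasts (limma adjusted p = 2.07e-05 and 9.1e-06). The brighter probe set, 1441910_x_at, whose suffix marks that it can bind several transcripts, read 1569.7, 532 and 378 in neutrophils, 5993, 3511 and 1295 in Mac1+ myeloblasts, and 2913, 5168 and 4823 in Mac1- myeloblasts. It stands for the gene in the gene fit, where neutrophils overlapped Mac1+ myeloblasts and the difference was -2.11 ± 0.63 (limma adjusted p = 0.0215). That call was lost without neutrophil array 2 or 3 or Mac1+ array 1 or 2, with limma adjusted p = 0.0654, 0.0671, 0.0784 and 0.0667. Against Mac1- myeloblasts the difference was -2.58 ± 0.63 (limma adjusted p = 0.0072). Without neutrophil array 1 the differences were -2.70 and -3.17 (limma adjusted p = 0.00399 and 0.00147). Neither probe set was called between the myeloblast populations.

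The kinase genes differed widely in how far they fell. Cdk4, a partner of D-type cyclins in many dividing cells, read 164, 36.5 and 32.6 in neutrophils, 3678, 3968 and 4303 in Mac1+ myeloblasts, and 6819, 7178 and 6940.2 in Mac1- myeloblasts on probe set 1422441_x_at. No population overlapped another, and array 1 was the highest of the neutrophil arrays. Cdk4 was lower in neutrophils than in Mac1+ myeloblasts (6.27 ± 1.06 against 11.96 ± 0.11, SD, n = 3 each, log2 scale, difference -5.69 ± 0.43, limma adjusted p = 4.88e-06) and than in Mac1- myeloblasts (difference -6.50 ± 0.43, limma adjusted p = 1.61e-06). Their size depends on the offset of 16 added to the intensity, since the readings of neutrophil arrays 2 and 3 lay below the array medians of 45.4 and 40.9. With an offset of 1 they were -6.07 and -6.88, and with an offset of 64 -4.95 and -5.76, all called. Without neutrophil array 1 they were -6.30 and -7.11. All 3 probe sets of Cdk4 were called lower, with differences of -5.69 to -5.59 against Mac1+ and -6.50 to -6.45 against Mac1- myeloblasts.

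Between the myeloblast populations, Cdk4 was lower in Mac1+ cells without overlap on all 3 probe sets, with differences of -0.85 to -0.81. The difference was not called in the gene fit (-0.81 ± 0.43, limma adjusted p = 0.349), whose error includes the spread of the neutrophil arrays. It was called without neutrophil array 1 (limma adjusted p = 8e-04) and in a fit of the myeloblast arrays alone (limma adjusted p = 0.00136).

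Cdk6, the other partner of D-type cyclins and one prominent in blood cells, read 435, 533 and 712 in neutrophils, 8604, 8520.3 and 11016 in Mac1+ myeloblasts, and 8773, 8384 and 8858 in Mac1- myeloblasts on probe set 1435338_at. The myeloblast populations overlapped, and neutrophils lay far below both. It was 16.5-fold lower in neutrophils than in Mac1+ myeloblasts (difference -4.05 ± 0.20, limma adjusted p = 3.58e-07) and 15.4-fold lower than in Mac1- myeloblasts (difference -3.94 ± 0.20, limma adjusted p = 2.93e-07). Between Mac1+ and Mac1- myeloblasts the difference was 0.10 ± 0.20, with a 95% interval from -0.35 to 0.55. All 3 probe sets were called lower in neutrophils, from -4.05 to -2.53 against Mac1+ and from -3.94 to -3.03 against Mac1- myeloblasts.

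Cdk2, the kinase of cyclin E, changed least of the 3 kinases in neutrophils. Probe set 1416873_a_at read 612, 519 and 602 in neutrophils, 1118, 1053 and 1315 in Mac1+ myeloblasts, and 964, 1028 and 859 in Mac1- myeloblasts. It was 1.98-fold lower in neutrophils than in Mac1+ myeloblasts (difference -0.99 ± 0.15, limma adjusted p = 0.000512) and 1.63-fold lower than in Mac1- myeloblasts (difference -0.70 ± 0.15, limma adjusted p = 0.00354). The myeloblast populations did not overlap, with a difference of 0.28 ± 0.15 that was not called (limma adjusted p = 0.352). The other probe set, 1447617_at, lay between percentile 2.8 and 21.8 of its array in all 9 samples and was called in no comparison.

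The promoters of these 3 kinase genes are shown because the genes fell by unequal amounts. They are from RefSeq on GRCm38.p6, each running from 250 bases before to 50 bases after the start of the gene, 5′ to 3′ on the gene's strand, and 5 of the 8 genes (also Ccnd3 and Ccne1) had an entry. Capitals mark CACGTG, the E-box letters that Myc and related factors bind, and the E2F letters TTTCCCGC, TTTCGCGC, TTTGGCGC and TTTGCCGC, all searched on both strands. The motifs were chosen with the expression values known.
Cdk4 (chr10:127063285-127063584, plus strand): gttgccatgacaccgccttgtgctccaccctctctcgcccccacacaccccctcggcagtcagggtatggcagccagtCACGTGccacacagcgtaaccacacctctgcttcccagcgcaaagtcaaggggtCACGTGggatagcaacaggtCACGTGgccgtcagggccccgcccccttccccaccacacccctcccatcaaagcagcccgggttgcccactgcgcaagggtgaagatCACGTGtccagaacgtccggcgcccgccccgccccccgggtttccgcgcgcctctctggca
Cdk6 (chr5:3343643-3343942, plus strand): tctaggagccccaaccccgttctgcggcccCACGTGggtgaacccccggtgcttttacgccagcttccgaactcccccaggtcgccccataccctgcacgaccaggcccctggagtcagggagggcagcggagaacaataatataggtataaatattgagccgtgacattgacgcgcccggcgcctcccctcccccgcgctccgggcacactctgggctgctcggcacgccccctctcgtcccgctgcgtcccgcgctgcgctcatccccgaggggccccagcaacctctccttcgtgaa
Cdk2 (chr10:128705002-128705301, minus strand): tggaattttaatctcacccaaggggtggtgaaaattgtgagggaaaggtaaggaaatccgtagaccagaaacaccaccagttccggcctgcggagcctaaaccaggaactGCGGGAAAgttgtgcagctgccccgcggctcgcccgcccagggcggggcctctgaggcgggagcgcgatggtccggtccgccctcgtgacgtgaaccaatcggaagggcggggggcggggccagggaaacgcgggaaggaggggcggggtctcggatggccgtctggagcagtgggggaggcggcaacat

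The Cdk4 promoter holds CACGTG 4 times, starting 172, 118, 98 and 11 bases before the start. Of 32851 promoters in the same table, 7.15% hold it at least once and 0.024%, which is 8 promoters, at least 4 times. The Cdk6 promoter holds it once, 220 bases before the start, and the Cdk2 promoter does not hold it. The Cdk2 promoter holds TTTCCCGC on the opposite strand, 140 bases before the start, where 2.265% of promoters hold at least 1 of the E2F letters searched. Neither motif was found in the windows of Ccnd3 or Ccne1. A match describes letters in the window and is no measurement of binding.

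The changes of related genes were compared within the same arrays, and are described by size and overlap. For each of 4 pairs the difference of log2 values was taken on every array, and its change between populations was compared in 12 exact two-sided permutation tests, in which 3 arrays against 3 cannot go below p = 0.1. Relative to Ccnd3, Ccnd1 changed by -3.45 in neutrophils and by -4.26 in Mac1+ myeloblasts, both against Mac1- myeloblasts, with no overlap of the arrays (exact permutation p = 0.1 each, 0.133 after Benjamini-Hochberg adjustment). Relative to Ccnd3, Ccnd2 changed by -2.71 and -1.76 in these comparisons, again with no overlap (exact permutation p = 0.1 each, adjusted 0.133). In neutrophils against Mac1+ myeloblasts, Ccnd1 changed by 0.81 relative to Ccnd3 (exact permutation p = 0.1, adjusted 0.133), and Ccnd2 by -0.95 (exact permutation p = 0.4, adjusted 0.436). Without neutrophil array 1, Ccnd2 changed by -1.55 relative to Ccnd3 against Mac1+ and by -3.31 against Mac1- myeloblasts (exact permutation adjusted p = 0.109 each).

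Between the kinases, Cdk4 fell further than Cdk6 in neutrophils against Mac1- myeloblasts (-6.50 against -3.94). In Mac1+ against Mac1- myeloblasts the changes were -0.81 for Cdk4 and 0.10 for Cdk6. Relative to Cdk4, Cdk6 thus changed by 2.56 in neutrophils and by 0.91 in Mac1+ myeloblasts (exact permutation p = 0.1 each, adjusted 0.133). The value in neutrophils was 3.33 without neutrophil array 1. Against Mac1+ myeloblasts it was 1.65, with neutrophil array 1 inside the range of the Mac1+ arrays (exact permutation p = 0.2, adjusted 0.24), and 2.42 without that array (exact permutation adjusted p = 0.109). Ccne1 changed by 2.01 relative to Ccne2 in neutrophils against Mac1- myeloblasts and by 2.52 against Mac1+ myeloblasts (exact permutation p = 0.1 each, adjusted 0.133), values that rest on probe set 1441910_x_at. With 1416492_at in its place they were 0.42 and 0.81 (exact permutation adjusted p = 0.7 and 0.436). In Mac1+ against Mac1- myeloblasts that pair overlapped (-0.51, exact permutation p = 0.6, adjusted 0.6).

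**Figure D4:**
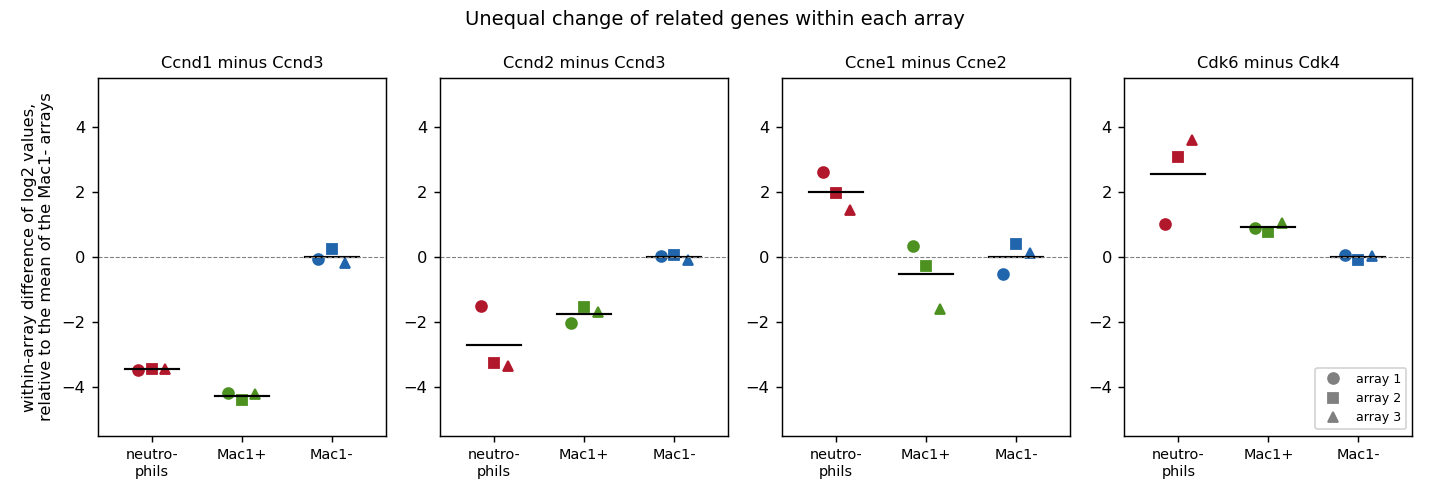
Difference of log2(intensity + 16) between 2 related genes on each array, set to 0 at the mean of the Mac1- arrays; symbols mark array 1, 2 and 3 and the line is the mean of 3 arrays. On the probe sets of the gene fit, Ccnd1 minus Ccnd3 separates the populations with little spread. Neutrophil array 1 stands apart for Ccnd2 minus Ccnd3 and for Cdk6 minus Cdk4.

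Genes with the most similar course over the 9 arrays were ranked by the root mean square difference of log2 values after each gene was centred on its own mean, as a description. For Ccne2 these were Mcm2, a subunit of the replicative helicase, Prim1, a primase subunit, and Rrm1, a subunit of ribonucleotide reductase, at 0.15, 0.17 and 0.17, where the median over all genes was 2.23. For Cdk6 they were Pold1, the catalytic subunit of DNA polymerase delta, Wdr90 and Calu, at 0.11, 0.12 and 0.13 (median 1.94). For Cdk4 they were Nop58, a nucleolar protein of ribosome biogenesis, Hsph1, a heat shock protein, and Syce2, at 0.27, 0.31 and 0.31 (median 2.97).

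Zfp385a, Mndal and Cx3cr1, a chemokine receptor of monocytes, came nearest to Ccnd1, at 0.17, 0.37 and 0.37 (median 1.49). Cyfip2, Ncf1, a subunit of the NADPH oxidase, and Lonrf1 came nearest to Ccnd3, at 0.04, 0.07 and 0.08 (median 0.68). Those nearest to Ccnd2 were Gpt, Sash1 and Rps25, at 0.18, 0.18 and 0.19 (median 0.95). Those nearest to Ccne1 were Ptbp1, Slc12a8 and Anxa13, at 0.19, 0.20 and 0.20 (median 1.41). Sypl, Troap and Sec22b came nearest to Cdk2, each at 0.11 (median 0.68).

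Genes that act on the G1 cyclins and kinases, or share their families, were followed in 6 lists of 67 genes, 66 of which were measured. In neutrophils 15 were higher and 31 lower against Mac1- myeloblasts, where 22.6% of all genes were higher and 30% lower. Against Mac1+ myeloblasts 13 were higher and 32 lower, with 19.7% and 28.4% of all genes. The counts of each list below are to be read beside these shares. The Mac1+ myeloblasts had 9 higher and 1 lower than the Mac1- myeloblasts, with 6.31% and 5.51% of all genes. That pair of counts was 16 and 4 without neutrophil array 1. The number higher was 3 or 4 without any 1 of the 6 myeloblast arrays. For these fits the shares of all genes called were not taken.

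Of 7 Cdk inhibitors, 2 were higher, 2 lower and 3 not called in neutrophils against each myeloblast population (medians 0.17 against Mac1- and 0.20 against Mac1+ myeloblasts). Of all genes, 22.6% were higher and 30% lower against Mac1-, and 19.7% and 28.4% against Mac1+ myeloblasts. Cdkn2d, which encodes an inhibitor of Cdk4 and Cdk6, was higher in neutrophils by 3.45 ± 0.15 against Mac1- and 1.47 ± 0.15 against Mac1+ myeloblasts (limma adjusted p = 1.32e-07 and 3.52e-05). Cdkn1b, the gene of Kip1, which inhibits cyclin E with Cdk2, was higher by 1.87 ± 0.18 and 1.34 ± 0.18. Cdkn2c, which encodes another inhibitor of Cdk4 and Cdk6, was lower, with -2.94 ± 0.29 and -3.20 ± 0.29, and so was Cdkn1a, the gene of Cip1, with -2.34 ± 0.15 and -0.49 ± 0.15. In Mac1+ against Mac1- myeloblasts, Cdkn2d was higher (1.98 ± 0.15), Cdkn1a lower (-1.85 ± 0.15), and the other 5 were not called (median 0.13).

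Of 13 retinoblastoma and E2F family genes, 2 were higher and 9 lower in neutrophils against Mac1- myeloblasts (median -2.17), and 1 higher and 10 lower against Mac1+ myeloblasts (median -2.15). The E2F repressor genes E2f6 and E2f7 were lower against Mac1- myeloblasts, with -4.89 ± 0.18 and -4.01 ± 0.34, as were Rbl1, a retinoblastoma relative, with -3.17 ± 0.34 and E2f5 with -3.13 ± 0.71. Against Mac1+ myeloblasts E2f7, E2f6, Rbl1 and E2f8 had -4.63 ± 0.34, -4.28 ± 0.18, -3.53 ± 0.34 and -2.79 ± 0.16. E2f2, an activator, was higher in neutrophils by 2.33 ± 0.18 against Mac1- and 0.72 ± 0.18 against Mac1+ myeloblasts. Between the myeloblast populations, Mac1+ against Mac1-, E2f2, E2f8 and Tfdp1, an E2F partner, were higher, with 1.61 ± 0.18, 0.63 ± 0.16 and 0.46 ± 0.13, and 10 genes were not called (median 0.32). The calls of E2f8 and Tfdp1 were lost with centring (limma adjusted p = 0.0965 and 0.144), with an offset of 1 (0.0618 and 0.0853) and without any 1 of the 6 myeloblast arrays (0.0792 to 0.173). The call of E2f2 was kept under all 20 alternatives, and that of Tfdp1 was lost under 13 of them.

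Of 9 genes listed for Cdk activation and inhibitory phosphorylation, 1 was higher and 8 lower in neutrophils against each myeloblast population (medians -2.34 against Mac1- and -2.81 against Mac1+ myeloblasts). The inhibitory kinase genes Wee1 and Pkmyt1 were lower against Mac1- myeloblasts, with -5.29 ± 0.45 and -3.44 ± 0.16, and against Mac1+ myeloblasts, with -5.35 ± 0.45 and -3.62 ± 0.16. Ccnh and Mnat1, whose proteins form the Cdk-activating kinase with Cdk7, had -3.12 ± 0.12 and -2.98 ± 0.21 against Mac1- myeloblasts. In Mac1+ against Mac1- myeloblasts the activating phosphatase genes Cdc25a and Cdc25c passed, with 0.94 ± 0.15 and 1.21 ± 0.25, and 7 genes did not (median 0.06). The call of Cdc25c was lost without Mac1+ array 2 or 3 or Mac1- array 2 or 3 and with an offset of 1 (limma adjusted p of at most 0.0774).

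Of 12 genes for the turnover of G1 cyclins and Cdk inhibitors, 3 were higher and 6 lower in neutrophils against Mac1- myeloblasts (median -0.01). Of all genes, 22.6% were higher and 30% lower there. Against Mac1+ myeloblasts 3 were higher and 5 lower (median -0.02), with 19.7% and 28.4% of all genes. Skp2, the ubiquitin ligase subunit that marks Kip1 for destruction, and its cofactor gene Cks1b were lower against Mac1- myeloblasts, with -5.16 ± 0.17 and -3.90 ± 0.25. Skp1, a core subunit of these ligases, was also lower, with -1.75 ± 0.15, and Fbxo31, whose protein is known to direct the destruction of cyclin D1, was higher, with 2.37 ± 0.16. Against Mac1+ myeloblasts Fbxo31 and Fbxo4 were higher, with 2.32 ± 0.16 and 2.33 ± 0.79. None of the 12 was called by limma in Mac1+ against Mac1- myeloblasts (median -0.02), where the smallest p were those of Cks2 (0.47 ± 0.14, limma adjusted p = 0.0686) and Skp2 (-0.34 ± 0.17, limma adjusted p = 0.308), and 1 gene had an unadjusted p under 0.05.

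Of 5 measured S and G2/M genes, 4 were lower and 1 was not called in neutrophils against each myeloblast population (medians -2.90 against Mac1- and -3.58 against Mac1+ myeloblasts). Against Mac1- myeloblasts Cdk1, the mitotic kinase, had -3.21 ± 0.21, and the cyclin genes Ccnb2, Ccna2 and Ccnf had -3.12 ± 0.40, -2.90 ± 0.16 and -1.16 ± 0.42. Ccna2, the cyclin A of dividing cells, was higher in Mac1+ than in Mac1- myeloblasts (0.68 ± 0.16, limma adjusted p = 0.0246), and the other 4 were not called (median 0.65). That call was lost with centring (limma adjusted p = 0.0731) and without any 1 of the 6 myeloblast arrays (0.0668 to 0.106). Ccnb1 was not analysed here.

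Of the 20 other cyclins and kinases, many of them tied to transcription, 7 were higher and 2 lower in neutrophils against Mac1- myeloblasts (median 0.22), and 6 higher and 3 lower against Mac1+ myeloblasts (median 0.22). Ccng2, a cyclin linked to cell cycle arrest, was higher against Mac1- myeloblasts, with 2.23 ± 0.17, as were Cdk17 with 1.42 ± 0.17 and Ccnl2 with 1.21 ± 0.15. Cdk8, a kinase of the Mediator complex, was lower, with -2.18 ± 0.42. Ccng2 and Cdk19 were higher in Mac1+ than in Mac1- myeloblasts, with 0.75 ± 0.17 and 0.52 ± 0.14, and 18 were not called (median 0.11). Cdk19 lost its call without any 1 of the 6 myeloblast arrays, and Ccng2 without any of them but Mac1+ array 3, at limma adjusted p of up to 0.158 and 0.416 over all alternatives.

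**Figure D5:**
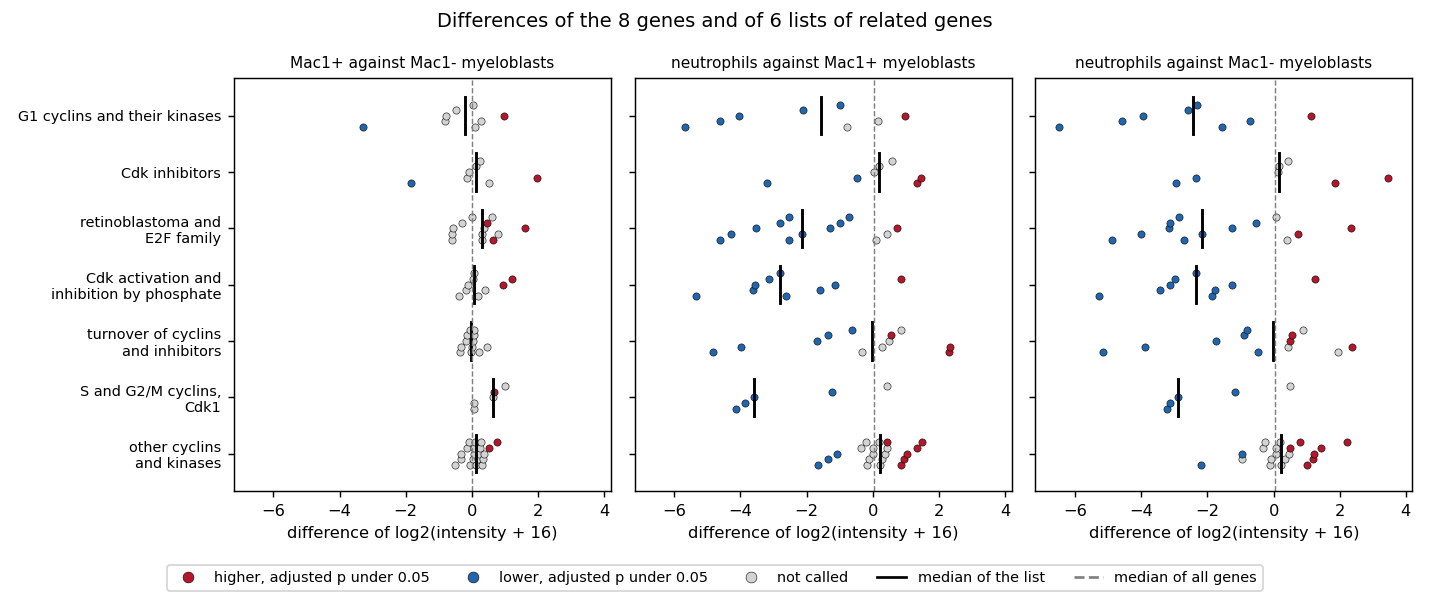
Difference of log2(intensity + 16) of the 8 genes and of the genes of 6 lists, 1 panel per comparison; red points were called higher, blue lower and grey not called, the bar is the median of the list and the dashed line the median of all genes. The retinoblastoma and E2F, phosphorylation and S to G2/M lists lie mostly to the left of the dashed line in neutrophils, with medians of -2.15, -2.81 and -3.58 against Mac1+ myeloblasts.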

How the data were processed

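The authors deposited 1 linear intensity for each of 45101 probe sets on each of 9 arrays, 3 for each of 3 populations. Per the labels' protocols, RNA was purified on columns, amplified by a method with a second round of transcription, which favours the 3′ ends of transcripts, and labelled with biotin. The sources used here do not say how intensities were summarised and scaled. Values were used as deposited, as log2(intensity + 16). Of the probe sets, 34945 name 1 gene, 932 several and 9160 none, and 64 are controls, which were left out of the fits. By gene ID, 99.4% of those with 1 gene matched the GRCm38.p6 gene table, and 0 symbols changed. Each gene was represented by its probe set with the highest mean over all arrays.

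A linear model of the 3 populations was fitted with limma 3.58.1 in R 4.3.3 over 18193 genes, and again over 45037 probe sets, with Benjamini-Hochberg adjustment over each table. The procedure was tested on simulated data. The members and lists were chosen with earlier results of these data known. In each list and comparison, at most 4 called genes were named, by size of difference; a list without calls had its 2 genes of lowest p named. The 3 nearest genes of each member were also named. Alternatives were a replicate block, 2 other scalings, offsets of 1 and 64, leaving out the dimmest 40% of genes, other choices of probe set, other variance models, fits of 2 populations and leaving out each array. Whether replicate numbers pair the samples could not be settled with 3 arrays per population. Same-numbered arrays correlated in their deviations at -0.307 to 0.132. The same number gave the highest correlation only for neutrophil and Mac1+ arrays 1 (0.132 against -0.041) and 3 (0.086 against 0.024).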

Additional observations from a re-analysis of the deposited data

How the results depend on the processing

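Of 480 values of the 8 genes under alternative settings, 453 kept their direction and their side of the threshold, 14 passed it newly, 5 no longer passed and 8 turned in sign. For probe sets these counts were 1259, 36, 50 and 8 of 1353. With the replicate number as a block, the genes of the lists called higher in Mac1+ against Mac1- myeloblasts numbered 5, against 9, and the member probe sets called lower 3, against 6; the lost calls included 1416122_at, 1416123_at and 1430127_a_at of Ccnd2 (limma adjusted p = 0.0738, 0.0625 and 0.0722), Ccna2 (0.0724), E2f8 (0.0775) and Tfdp1 (0.132). An offset of 1 gave the same counts of 5 and 3. Genes of the lists called lower there, 1 in the report, numbered 3 with quantile normalization, 2 with an offset of 64, 2 without dim genes and 2 when probe sets were averaged per gene. A fit of only the myeloblast arrays gave 17 list genes higher and 4 lower, 11 member probe sets lower and 3 member genes lower, and array weights gave 19, 4, 14 and 3. Member genes lower there numbered 2 with the mean of probe sets and 2 without probe sets of suffix x or s. Member genes higher in neutrophils against Mac1+ myeloblasts numbered 2 with quantile normalization, with the mean of probe sets and with array weights. Shares of all genes or probe sets called were not taken under the alternatives, apart from genes under the 2 other scalings. Most counts here and below thus have no share to be read beside.

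Leaving out 1 array at a time gave, in Mac1+ against Mac1- myeloblasts, 3 to 16 list genes higher and 1 to 4 lower, 1 to 2 member probe sets higher and 3 to 13 lower, and 1 to 3 member genes lower; apart from probe sets higher, the highest counts came without neutrophil array 1. Differences of genes and probe sets that turned in sign were all uncalled, and those of pairs could not be called with so few arrays. Between the myeloblast populations, Ccne2 was -0.05 with quantile normalization, -0.03 without Mac1+ array 1 and 0.00 (rounded) without Mac1- array 2, on its gene and probe set values alike. Leaving out arrays in turn gave -0.03 to 0.10 for Ccne2, -0.02 to 0.17 for Cdk6, -0.96 to 0.14 for Ccne1, -0.94 to 0.04 for Ccne1 relative to Ccne2 and -0.26 to 0.02 for probe set 1438805_at of Ccnd3. With the mean of probe sets Cdk6 was -0.08 and Cdk2 -0.06. The upper ends for Ccne1 and the lower end for Cdk6 came without Mac1+ array 3, and that of 0.02 without Mac1+ array 1. In neutrophils against Mac1+ myeloblasts, centring each array gave -0.04 for Ccnd3 and -0.06 for the dim probe set of Cdk2, and the mean of probe sets gave -0.92 for Ccnd1 relative to Ccnd3 (exact permutation adjusted p = 0.109), where it includes probe set 1438805_at. Under centring the all-gene median was -0.15 in that comparison and -0.12 against Mac1- myeloblasts, where it had been 0.05 in both. The share of called genes that were higher was 32.8% and 36.8% under centring, against 41% and 42.9%. The cause of the other changes was not tested. Signal near background limits what Ccnd1 in Mac1+ myeloblasts and Cdk4 in neutrophils can show.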
